A study of Mus musculus with 30 samples.

Results

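The expression of 8 genes of cholesterol synthesis was followed across mouse B cell populations on oligonucleotide arrays. The genes were Hmgcs1, Idi1, Fdps, Fdft1, Sqle, Lss, Cyp51 and Srebf2. They were found by gene symbol in the array platform's annotation and were chosen with earlier results of these data known. They are 8 of the 19937 genes to which a probe set with a single symbol could be assigned, and they are represented by 10 of the 34760 probe sets. The set holds 7 enzymes of the synthesis route and 1 regulator. It holds no receptor or transport protein of cholesterol uptake, so uptake genes are described from a separate list.

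All cells came from mesenteric lymph nodes of CeGFP BALB/c mice, 10 days after infection with the nematode Nippostrongylus brasiliensis. The mice carry a knock-in of IRES-GFP in the 3'UTR of the membrane form of IgE, so that GFP marks IgE cells and also those IgG1 cells that have rearranged to Cepsilon on the IgH chromosome that does not encode their receptor. Cells of 3 mice were pooled for each array, with a separate sort each time, and the arrays were hybridised with 5 µg of cDNA amplified from 2 ng of total RNA. The first experiment had 18 arrays. The gate for germinal center (GC) cells was B220+CD95+CD138-, taken as IgG1+GFP- (n = 3), IgG1+GFP+ (n = 3) or IgE+GFP+ (n = 3). Plasma cells (PC) were sorted as CD95+CD138+ and were IgG1+GFP+ (n = 2) or IgE+GFP+ (n = 4). Naive B cells were B220+CD95-CD138-IgG1-IgE- cells of infected mice (n = 3). The second experiment had 12 arrays of IgG1 GC cells, split into dark zone cells (DZ, CXCR4high CD86low) and light zone cells (LZ, CXCR4low CD86high), each as GFP+ and GFP-, with 3 arrays per group. Levels are given as log2 signal and are compared within an experiment and within a gene only.

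Cholesterol is built from acetyl-CoA. HMG-CoA synthase (Hmgcs1) makes the precursor of mevalonate, which yields isoprene units. Isopentenyl diphosphate isomerase (Idi1) isomerises the isoprene unit and farnesyl diphosphate synthase (Fdps) joins the units. Squalene synthase (Fdft1) takes the first step that is committed to sterols. Squalene epoxidase (Sqle), lanosterol synthase (Lss) and lanosterol demethylase (Cyp51) then oxidise, cyclise and trim the chain toward cholesterol. Srebf2 encodes SREBP-2, a membrane-bound transcription factor that is released from the endoplasmic reticulum and Golgi when membrane sterol is low and switches on this route and its own gene. Cells that divide or enlarge their membranes need sterol, and the intermediate farnesyl diphosphate also feeds protein prenylation and the dolichol used in glycosylation.

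Promoter sequence was read from RefSeq windows on GRCm38.p6, which run from 250 bases before to 50 bases after each gene's start, and windows were found for 5 of the 8 genes (Hmgcs1, Idi1, Lss, Cyp51 and Srebf2; Sqle, Fdps and Fdft1 had none in that table). They are shown because SREBP-2 acts at such promoters through a sterol regulatory element beside boxes for the factors NF-Y and Sp1. The element was searched as TCACNCCAC, the NF-Y box as CCAAT and the Sp1 box as GGGCGG, on both strands. None of the 3 motifs contains another. The Hmgcs1 window held the sterol regulatory element, whose letters are in capitals, 137 bases before the start site:

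Hmgcs1 at chr13:119690204-119690233, plus strand: cgtcaccgtcTCACCCCACttcccaggtcc

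The NF-Y box was in all 5 windows. The copy nearest before the start site of Hmgcs1 (45 bases before it) and 1 copy each for the other genes are given below, with the box in capitals, read as ATTGG where it lies on the opposite strand:

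Hmgcs1 at chr13:119690294-119690323, plus strand: tccccgcctctcATTGGctgaaagcggatc
Idi1 at chr13:8885549-8885578, plus strand: tgcctccagctgATTGGcgagcccgggcat
Lss at chr10:76531531-76531560, plus strand: ggtgatgctctgATTGGccgagctcgcatc
Cyp51 at chr5:4104709-4104738, minus strand: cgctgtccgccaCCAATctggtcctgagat
Srebf2 at chr15:82147122-82147151, plus strand: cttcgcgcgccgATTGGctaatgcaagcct

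Over all 32817 windows of this length, 1.24% held TCACNCCAC, 37.4% held CCAAT and 35.6% held GGGCGG. The Sp1 box was likewise in 5 of 5 windows of the 8 genes. Among 12 other genes of sterol synthesis with a window, 0 held the sterol regulatory element, 11 held the NF-Y box and 11 held the Sp1 box. A match is a description of letters, and its absence says only that these letters were not in the window.

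The sorted populations matched their labels by marker genes. The mean level of 4 GC markers ranged from 10.5 to 10.9 on GC arrays of the first experiment and from 5.82 to 5.88 on naive arrays, and the mean of 5 PC markers from 10.5 to 10.9 on PC arrays and from 6.03 to 8.10 elsewhere. Within-group correlations over all probe sets were 0.891 to 0.975, lowest among naive arrays, and naive replicate 1 and GFP+ IgG1 GC replicate 3 stood apart in earlier analysis of these data. Naive arrays also carried more signal from other cell types. The mean of 7 macrophage and dendritic cell markers was 5.49 to 6.24 on naive arrays, 4.86 to 5.26 on GC arrays and 5.01 to 5.75 on PC arrays, and 4 of the 7 had a naive mean above the array median, against 2 in each GC group. The mean of 6 stromal and endothelial markers was 5.73 to 6.13 on naive arrays and 5.23 to 5.61 on GC arrays, and the mean of 5 T cell markers 5.40 to 5.83 and 4.85 to 5.70. Their part in the differences from naive cells was not tested. In sorted bulk samples, fewer cells of a type and less RNA per cell cannot be told apart.

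Of the enzymes, 6 were higher in GC cells of both isotypes than in naive B cells. Against naive cells, 7 of the 8 genes were higher in IgE GC cells, in GFP+ IgG1 GC cells and in GFP- IgG1 GC cells, and the gene that did not pass in any of them was Lss (limma, p adjusted by Benjamini-Hochberg over 12098 genes, threshold 0.05). The share of all tested genes called higher was 19.3% for IgE, 16.8% for GFP+ IgG1 and 20.5% for GFP- IgG1 GC cells. The median difference of the 8 genes was 1.35, 1.47 and 1.54 log2 units in that order, beside medians of 0.06, 0.02 and 0.07 over all tested genes. These 3 comparisons use the same naive arrays. Without the 2 arrays that stood apart, the counts were again 7 of 8 in each. Centring each array on its median over tested genes lowered the median of all tested genes by 0.26, 0.23 and 0.29, and the share of calls that were higher went from 72.3% to 40.2%, from 72.3% to 44.9% and from 68.6% to 33.2%.

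Of the enzymes after farnesyl diphosphate, Sqle, Cyp51 and Fdft1 were higher in each GC group. Sqle, a rate-limiting enzyme of the sterol steps, read 6.27, 6.40 and 6.64 on the naive arrays. It read 8.14, 8.65 and 7.81 in IgE GC cells, 8.33, 8.19 and 7.57 in GFP+ IgG1 GC cells and 8.57, 8.30 and 7.67 in GFP- IgG1 GC cells. All GC arrays lay above all naive arrays, and Sqle was 3.40-fold higher in IgE GC cells (log2 difference 1.77, SE 0.36, adjusted p = 0.00142), 3.02-fold in GFP+ (adjusted p = 0.00354) and 3.35-fold in GFP- IgG1 GC cells (adjusted p = 0.0017). Cyp51, which removes a methyl group from lanosterol, read 6.40, 7.17 and 6.42 on the naive arrays. It averaged 8.54 ± 0.46 (SD, n = 3) in IgE GC cells, 8.39 ± 0.97 (SD, n = 3) in GFP+ and 8.72 ± 0.56 (SD, n = 3) in GFP- IgG1 GC cells. GFP+ replicate 3 was the lowest GC array for Cyp51, at 7.28, and still lay above every naive array. The log2 differences of Cyp51 from naive cells were 1.88 (SE 0.40, adjusted p = 0.00225), 1.72 (adjusted p = 0.0047) and 2.06 (adjusted p = 0.00117).

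Fdft1, at the branch point to sterols, read 6.98, 6.74 and 5.56 on the naive arrays and 7.31 to 8.47 on the 9 GC arrays. The groups did not overlap, and its log2 differences from naive cells were 1.47, 1.48 and 1.81 in IgE, GFP+ IgG1 and GFP- IgG1 GC cells (adjusted p = 0.0105, 0.0109 and 0.00271). Naive replicate 3 was the lowest of these arrays. Without it the Fdft1 difference was 1.04 in IgE GC cells (adjusted p = 0.0587) and 1.05 in GFP+ IgG1 GC cells (adjusted p = 0.0615), and without GFP+ replicate 1 it was 1.26 (adjusted p = 0.0582). Another probe set of Fdft1, correlated with the first at 0.907 over 30 arrays, gave 1.31, 1.07 and 1.48 and passed in all 3 comparisons. Lss, the enzyme that closes the sterol rings, was the exception among the enzymes. It read 6.19, 5.83 and 5.87 in naive cells, and 6 of the 9 GC arrays lay above the highest of these. Its log2 differences were 0.24, 0.45 and 0.36 (SE 0.30, adjusted p = 0.572, 0.312 and 0.371), so a change of this size could not be told from the spread, and under median centring the IgE value was -0.02.

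Upstream of squalene, Hmgcs1 and Fdps were higher as well. Hmgcs1, the entry enzyme, read 7.92, 7.29 and 7.09 on the naive arrays, 8.87, 8.59 and 7.88 in IgE GC cells, 8.87, 8.92 and 8.54 in GFP+ IgG1 GC cells and 8.94, 9.05 and 8.32 in GFP- IgG1 GC cells. Of the 9 GC arrays, 8 lay above the highest naive array, and IgE GC replicate 3 lay just below it. Hmgcs1 was 2.02-fold higher in IgE GC cells (log2 difference 1.01, SE 0.27, adjusted p = 0.0112), 2.54-fold in GFP+ and 2.52-fold in GFP- IgG1 GC cells (both adjusted p = 0.00168). The IgE value missed the threshold without naive replicate 3 (0.84, adjusted p = 0.0523), without IgE GC replicate 1 (0.80, adjusted p = 0.0605) and after a further quantile normalization (0.78, adjusted p = 0.0527). Fdps, which makes farnesyl diphosphate, read 6.40, 6.76 and 5.87 on naive arrays and 7.26 to 8.14 on the 9 GC arrays, with no overlap. Its log2 differences were 1.22, 1.45 and 1.06 in IgE, GFP+ IgG1 and GFP- IgG1 GC cells (adjusted p = 0.00251, 0.000671 and 0.00697).

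Idi1, which isomerises the isoprene unit, gave the largest of the 8 differences in each GC group on its brighter probe set, and this rests on that probe set. The naive arrays read 6.37, 6.33 and 6.98, and the 9 GC arrays 8.01 to 9.13. The log2 differences were 1.98 (SE 0.31, adjusted p = 0.000142) in IgE GC cells, 2.12 (adjusted p = 7.72e-05) in GFP+ and 2.09 (adjusted p = 8.97e-05) in GFP- IgG1 GC cells. A dimmer probe set carries the same symbol and correlated with the brighter one at 0.479 over 30 arrays. It read 5.72 to 7.81 on the naive arrays and averaged 7.78, 7.73 and 7.36 in the 3 GC groups in the same order, for differences of 1.04, 0.99 and 0.62. None of these 3 passed when it stood for the gene (adjusted p = 0.131, 0.166 and 0.346), which leaves 6 of 8 genes called in each GC group. Which of the probe sets is the better measure of Idi1 was not tested.

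The regulator's differences were smaller than those of the 6 called enzymes. Srebf2 read 9.23, 9.12 and 9.0 in naive cells, 9.81, 9.57 and 9.67 in IgE GC cells, 9.79, 9.77 and 9.52 in GFP+ IgG1 GC cells and 9.85, 9.63 and 9.54 in GFP- IgG1 GC cells. All 9 GC arrays lay above all 3 naive arrays, and the differences were 0.56 (1.48-fold, SE 0.16, adjusted p = 0.0143), 0.58 (adjusted p = 0.0133) and 0.56 (adjusted p = 0.0151). These calls were near the threshold and depended on the scaling. After a further quantile normalization the Srebf2 differences were 0.31, 0.38 and 0.31 (adjusted p = 0.158, 0.0925 and 0.154), and under median centring 0.30, 0.35 and 0.27 (adjusted p = 0.164, 0.12 and 0.215). With only the compared groups in the fit, the adjusted p of Srebf2 was 0.0758, 0.112 and 0.0761, and that of Hmgcs1 in IgE GC cells 0.0663. Single libraries also ended the Srebf2 call: in IgE GC cells without naive replicate 3 (0.51, adjusted p = 0.0502) or IgE replicate 1 (0.50, adjusted p = 0.0566), in GFP+ cells without replicate 1 (0.53, adjusted p = 0.0557) or replicate 2 (0.54, adjusted p = 0.0548), and in GFP- cells without naive replicate 3 (0.50, adjusted p = 0.0519) or replicate 1 (0.47, adjusted p = 0.0732). Without naive replicate 3, 4 of the 8 genes were called in IgE GC cells (Sqle, Idi1, Fdps and Cyp51).

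**Figure D1:**
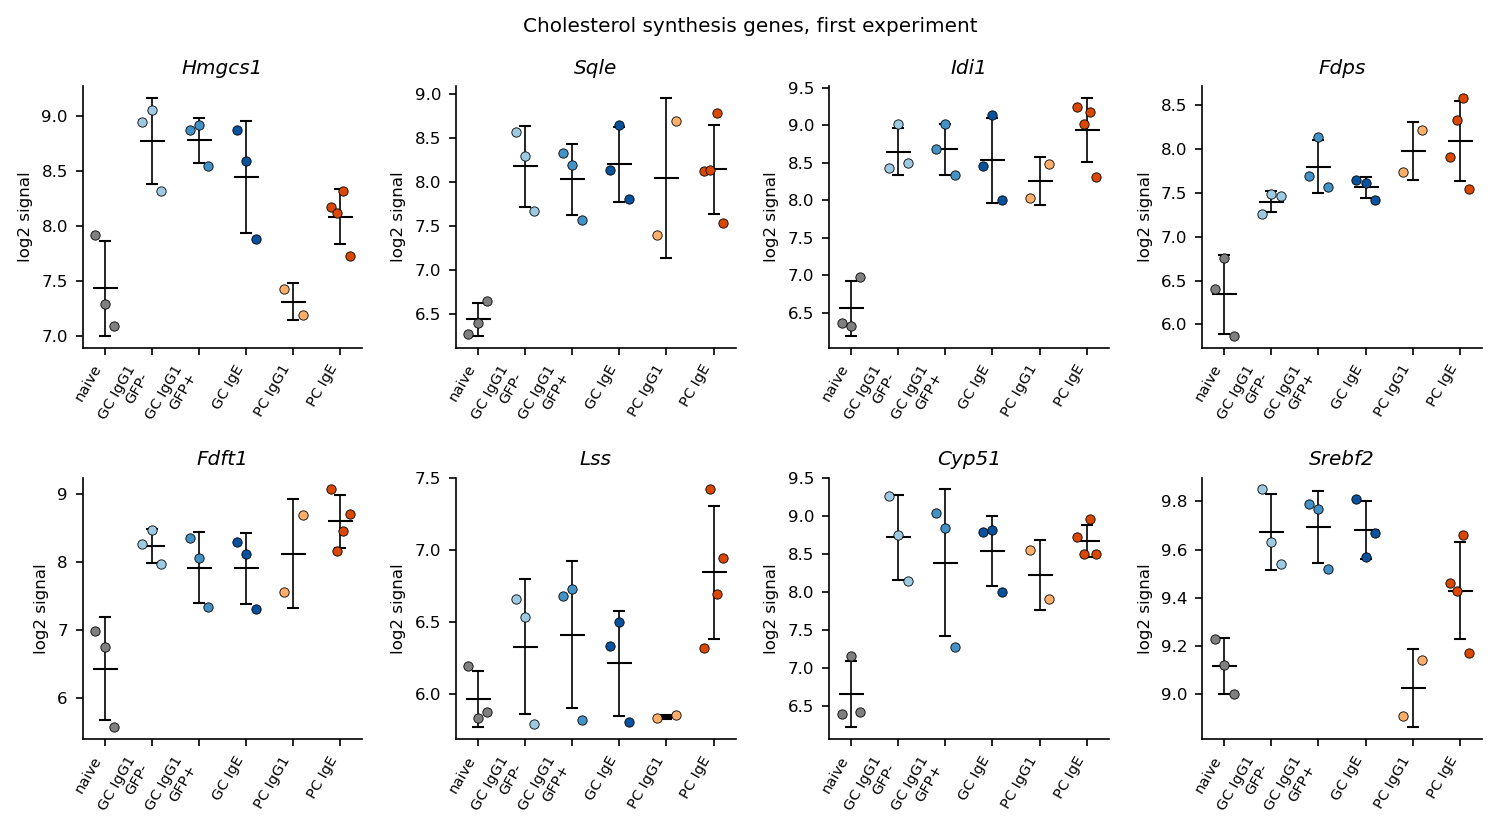
Log2 signal of each of the 8 genes (one panel per gene, vertical axis) on the 18 arrays of the first experiment by cell group (horizontal axis); points are arrays, horizontal lines group means and bars 1 SD. For Sqle, Idi1, Fdps, Fdft1 and Cyp51 the naive arrays lie below all other arrays, while Hmgcs1, Lss and Srebf2 in IgG1 PC lie at the level of naive cells.

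In plasma cells Sqle, Idi1, Fdps, Fdft1 and Cyp51 were above the naive level in both isotypes, and Lss in IgE cells. Against naive cells, 6 of the 8 genes were higher in IgE PC, where 23% of all tested genes were called higher, and 5 of the 8 in IgG1 PC, where 17.1% were. The median differences of the 8 genes were 1.73 in IgE PC and 1.59 in IgG1 PC, beside -0.01 and 0.01 over all tested genes. Both comparisons share the naive arrays, and median centring lowered the share of higher calls in IgE PC from 62.0% to 46.2%. For Sqle, Idi1, Fdps, Fdft1 and Cyp51, all 6 PC arrays lay above all 3 naive arrays. The share of all tested genes without overlap was not counted, for these or any other groups.

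Fdps read 7.91, 8.33, 8.58 and 7.54 on the IgE PC arrays and 7.74 and 8.21 on the IgG1 PC arrays. It was 3.36-fold higher than in naive cells in IgE PC (log2 difference 1.75, SE 0.25, adjusted p = 2.66e-05) and 3.10-fold higher in IgG1 PC (1.63, adjusted p = 0.000414). Fdft1 read 9.07, 8.16, 8.45 and 8.71 in IgE PC and 7.55 and 8.69 in IgG1 PC, and was 4.50-fold higher in IgE PC (2.17, adjusted p = 0.000168). Its difference in IgG1 PC was 1.69 (adjusted p = 0.00733). Sqle and Cyp51 rose by 1.70 and 2.01 in IgE PC (adjusted p = 0.000641 and 0.00043) and by 1.61 and 1.57 in IgG1 PC (adjusted p = 0.00535 and 0.0137). Idi1 rose by 2.38 in IgE PC (adjusted p = 4.62e-06) and 1.70 in IgG1 PC (adjusted p = 0.0011) on its brighter probe set, but the dimmer one gave 0.61 and 0.21 and did not pass (adjusted p = 0.323 and 0.831).

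In IgG1 PC, the calls of Idi1 and Fdps held with either array left out, and those of Sqle, Fdft1 and Cyp51 did not. The Idi1 call rested on its brighter probe set, and with the mean of its probe sets it was lost in limma (0.95, adjusted p = 0.0936). For Sqle the arrays read 7.40 and 8.69. Without replicate 2, the Sqle difference was 0.96 (adjusted p = 0.147), the Fdft1 difference 1.12 (adjusted p = 0.149), and 3 of the 8 genes were called. Without replicate 1, the Cyp51 difference was 1.25 (adjusted p = 0.131). With only these PC and the naive cells in the fit, the adjusted p of Fdft1 was 0.071.

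Lss, which did not pass in GC cells, was higher in IgE PC. It read 6.32, 7.42, 6.69 and 6.94 there and 6.19, 5.83 and 5.87 in naive cells, with no overlap, a difference of 0.88 (1.84-fold, SE 0.28, adjusted p = 0.023). The Lss call was lost without IgE PC replicate 2 (0.68, adjusted p = 0.0752), without naive replicate 2 (0.81, adjusted p = 0.063) or replicate 3 (0.83, adjusted p = 0.066), and under median centring (0.70, adjusted p = 0.0515). In IgG1 PC, Lss read 5.83 and 5.85, at the level of the lowest naive arrays. Hmgcs1 read 8.17, 8.12, 8.32 and 7.73 in IgE PC, a difference from naive cells of 0.65 (SE 0.26, adjusted p = 0.0545). It passed without IgE PC replicate 4 (0.77, adjusted p = 0.0359), without naive replicate 1 (0.90, adjusted p = 0.0153), with both arrays that stood apart left out (0.90, adjusted p = 0.0161), and in the fit with the replicate block (0.77, adjusted p = 0.0116). In IgG1 PC, Hmgcs1 read 7.43 and 7.19 (difference -0.12, adjusted p = 0.819). Srebf2 did not pass in either, with differences of 0.31 in IgE PC (adjusted p = 0.111) and -0.09 in IgG1 PC (adjusted p = 0.762), and after a further quantile normalization the IgE value was -0.01.

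**Figure D2:**
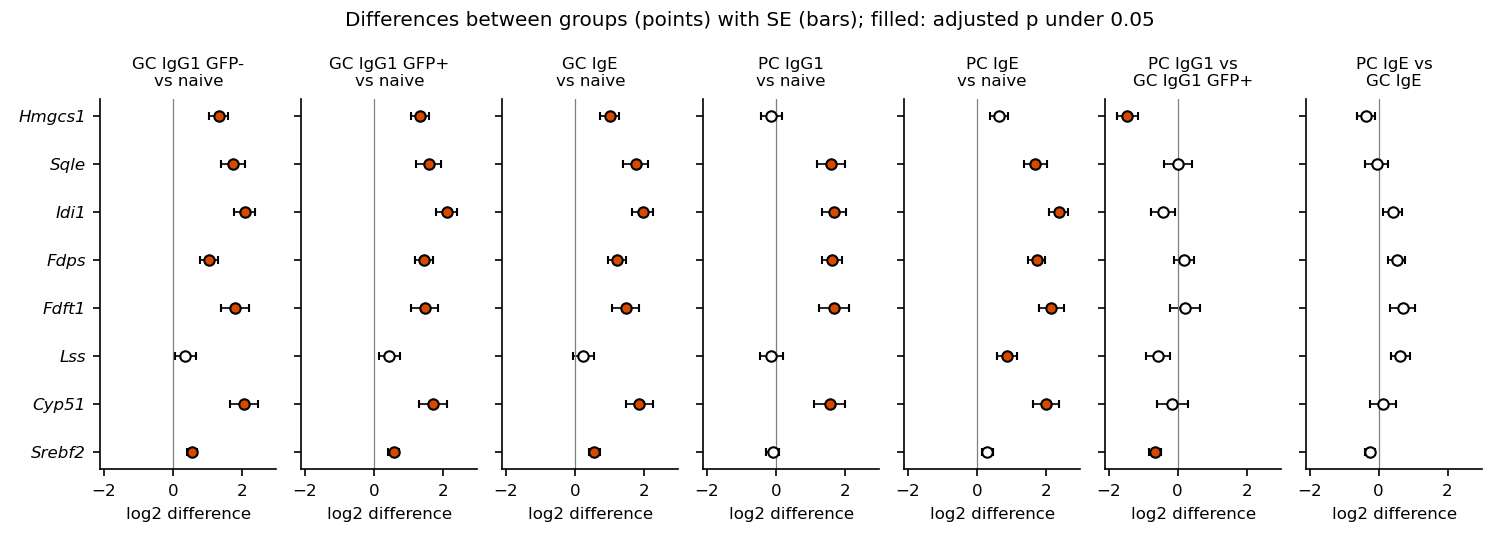
Log2 differences (points, horizontal axis) with their SE (bars) for the 8 genes (rows) in 7 comparisons of the first experiment (panels); filled points passed limma at an adjusted p under 0.05. Idi1 has the largest differences from naive cells on its brighter probe set, and Hmgcs1 and Srebf2 are the filled points on the negative side in IgG1 PC against GFP+ IgG1 GC cells.

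From GC cells to plasma cells, the called genes of the 8 were Hmgcs1 and Srebf2, both lower in IgG1 PC. Against IgE GC cells, 0 of the 8 genes passed in IgE PC by limma, while 23.6% of all tested genes did. An unadjusted p under the threshold was found for 32.7% of all tested genes and for 2 of the 8. These were Fdps, with a difference of 0.53 (adjusted p = 0.145), and Lss, with 0.63 (adjusted p = 0.131). The 8 differences ran from -0.36 for Hmgcs1 to 0.70 for Fdft1. Fdps passed in the fit with the replicate block (0.72, adjusted p = 0.0289) and without IgE PC replicate 4 (0.72, adjusted p = 0.0431).

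Against GFP+ IgG1 GC cells, 2 of the 8 genes passed in IgG1 PC, both lower, where 21.4% of all tested genes passed in either direction and 13.1% were lower. Hmgcs1 read 7.43 and 7.19 in IgG1 PC and 8.87, 8.92 and 8.54 in the GC cells, and was 2.76-fold lower (log2 difference -1.47, SE 0.30, adjusted p = 0.00203). The 2 groups lay more than 1 log2 unit apart. Srebf2 read 8.91 and 9.14 in IgG1 PC and 9.79, 9.77 and 9.52 in the GC cells, and was 1.59-fold lower (-0.67, SE 0.18, adjusted p = 0.0113). The Srebf2 call was lost under median centring (-0.48, adjusted p = 0.079), where the median of all tested genes moved by 0.19 and the share of higher calls went from 38.8% to 55.4%. It was also lost in a fit of these 2 groups alone (-0.67, adjusted p = 0.075) and without IgG1 PC replicate 1 (-0.55, adjusted p = 0.11). The other 6 genes differed by -0.57 (Lss, adjusted p = 0.268) to 0.21 (Fdft1, adjusted p = 0.79). Their SE were 0.30 to 0.45, so smaller changes could not be told from the spread.

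Between IgE and IgG1 PC, none of the 8 genes passed, and 0.959% of all tested genes did. The 8 differences were all above 0, from 0.10 to 1.00 with a median of 0.46, although Sqle and Fdps turned to -0.04 and -0.02 under median centring. Lss (1.00, 2.00-fold, SE 0.32, adjusted p = 0.173), Hmgcs1 (0.78, adjusted p = 0.251) and Srebf2 (0.40, adjusted p = 0.311) were the 3 genes with an unadjusted p under 0.05. Their 4 IgE and 2 IgG1 arrays did not overlap, and the share of all tested genes without such overlap was not counted. Of all tested genes, 13% had an unadjusted p under 0.05. Idi1 (0.68, adjusted p = 0.385), Fdft1 (0.48, adjusted p = 0.692) and Cyp51 (0.44, adjusted p = 0.729) differed by more than Srebf2 but varied more. Germinal center markers differed as well, with a mean level of 7.33 to 7.84 on the IgE PC arrays and 6.41 to 6.82 on the IgG1 PC arrays. Their part in the result was not tested. The change from GC to PC was also compared between IgE and GFP+ IgG1 cells in an interaction term, where 0.0909% of all tested genes passed and 0 of the 8. Its values were 1.20 for Lss (adjusted p = 0.564) and 1.11 for Hmgcs1 (adjusted p = 0.546), and the median of the 8 was 0.45. The fall of Hmgcs1 in IgG1 PC is therefore not shown to differ from the IgE value.

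Among GC cells, isotype and GFP made no detectable difference. In IgE against GFP+ IgG1, IgE against GFP- IgG1, and GFP+ against GFP- IgG1 GC cells, limma called 0 of the 8 genes and 0%, 0% and 0% of all tested genes, with 0 of the 8 at an unadjusted p under 0.05 (264, 205 and 265 of all genes). The 8 differences ran from -0.33 to 0.17, from -0.33 to 0.16 and from -0.33 to 0.40. Their SE were 0.16 (Srebf2) to 0.40 (Cyp51), so changes of that order could not be told from the spread. Ordered by level over the 6 groups of the first experiment, Sqle, Idi1, Fdps, Fdft1 and Cyp51 were lowest in naive cells, whose arrays did not overlap with the next group. For Hmgcs1, Lss and Srebf2, IgG1 PC were lowest and their arrays overlapped those of naive cells. Every other pair of neighbours in these orders overlapped.

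In the first experiment the 8 genes varied together from array to array. Over the 18 arrays of the first experiment all 28 pairs were positively correlated, with r from 0.346 to 0.905 and a median of 0.606, beside a median of -0.004 over all pairs of tested genes. After the group means were removed, all 28 stayed above 0, from 0.184 to 0.709 with a median of 0.398, beside 0.003 over all pairs. The points share array, amplification and normalization, so these values are descriptions with no test. The mean of the 8 genes was lowest on replicate 3 in each GC group, at 7.93, 7.74 and 7.74 in GFP- IgG1, GFP+ IgG1 and IgE cells against 8.29 to 8.46 on the other 6 GC arrays, and on replicate 3 of naive cells (6.68 against 6.96 and 6.97). In those GC groups, 6, 8 and 7 of the 8 genes had their lowest value on replicate 3. The share of all tested genes that did so was not counted. In IgE PC the mean ran from 8.06 to 8.58, lowest on replicate 4, and the IgG1 PC arrays read 7.68 and 8.02. In the second experiment the pairs ran from -0.489 to 0.733 with a median of 0.179, beside 0.015 over all pairs of tested genes. There 20 of the 28 pairs were above 0, and 18 after the group means were removed. The latter ran from -0.635 to 0.672 with a median of 0.153, beside 0.024 over all pairs.

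**Figure D3:**
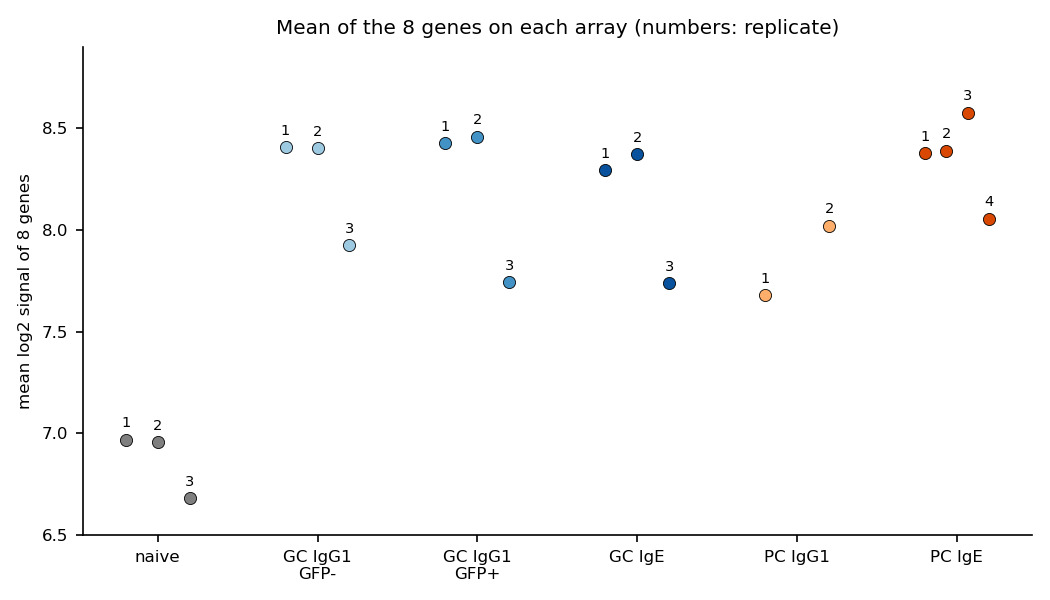
Mean log2 signal of the 8 genes (vertical axis) on each of the 18 arrays of the first experiment by cell group (horizontal axis), with the replicate number above each point. Replicate 3 is lowest in naive cells and in all 3 GC groups, and all naive arrays lie below all other arrays.

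The genes outside the set whose levels were most like the mean of the 8, each scaled over the 18 arrays, were Msmo1 (r = 0.94), Prelid1 (0.92), Pgk1 (0.919), Hmgn3 (0.913) and Lpcat3 (0.913). Msmo1 encodes a demethylase of the same route and was also in the list of other sterol enzymes.

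Most other enzymes of the sterol route were higher as well. Of 11 tested genes among the other sterol synthesis enzymes, 8 were higher and 0 lower than in naive cells in IgE GC cells, 8 and 0 in GFP+ and 7 and 0 in GFP- IgG1 GC cells. The list's medians were 1.36, 1.06 and 1.33 beside 0.06, 0.02 and 0.07 over all tested genes, of which 19.3%, 16.8% and 20.5% were called higher. In IgE GC cells the largest differences were those of the demethylase Msmo1 (2.46), the desaturase Sc5d (2.43), the sterol reductase Lbr, also an inner nuclear membrane protein (1.64), and the phosphomevalonate kinase Pmvk (1.54). In IgG1 GC cells Msmo1 rose by 2.37 in both GFP classes and Sc5d by 2.39 in GFP+ and 2.57 in GFP- cells. The Sc5d values depended on naive replicate 1, without which they were 1.58 in IgE (adjusted p = 0.0014), 1.54 in GFP+ IgG1 (adjusted p = 0.00185) and 1.71 in GFP- IgG1 GC cells. Against naive cells, 8 of 11 were higher in IgE PC and 6 of 11 in IgG1 PC, with 0 lower in either. The shares of all tested genes called higher were 23% and 17.1% in these PC. There the sterol isomerase Ebp rose by 3.15 and 2.92 and the dehydrogenase Nsdhl by 2.70 and 2.36 in IgE and IgG1 PC. Fewer passed under other settings, 5 in GFP+ IgG1 GC cells under median centring and 3 in IgG1 PC in a fit of those groups alone. With 1 array left out, 5 was also the lowest count in GFP+ IgG1 GC cells (without GFP+ replicate 1 or 2 or naive replicate 2 or 3), and in IgG1 PC it was 4 (without either PC array).

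Of 8 tested genes that sense sterol and process SREBP, 1, 1 and 2 were higher and 0 lower than in naive cells in IgE, GFP+ IgG1 and GFP- IgG1 GC cells, near the shares of all tested genes called higher. With 1 array left out, the higher counts ran from 0 to 2, 0 to 1 and 1 to 3. Erlin1, a membrane protein of the endoplasmic reticulum, rose in each, by 1.34, 1.29 and 1.56. Without naive replicate 1 its values were 1.03 in IgE (adjusted p = 0.0647) and 0.98 in GFP+ IgG1 GC cells (adjusted p = 0.0848), and the GFP+ call was also lost without GFP+ replicate 1 (1.10, adjusted p = 0.08) or replicate 2 (1.11, adjusted p = 0.0796). In PC against naive cells, 2 of the 8 were higher and 0 lower in each isotype, beside 23% (IgE) and 17.1% (IgG1) of all tested genes called higher. Against GC cells, 2 were higher and 1 lower in IgE PC and 0 and 1 in IgG1 PC. Of all tested genes, 23.6% and 21.4% were called in either direction in these 2 comparisons. Insig1, which retains SREBP in the endoplasmic reticulum and is itself an SREBP target, rose by 2.34 in IgE PC against naive cells (adjusted p = 0.000731) and by 2.12 against IgE GC cells (adjusted p = 0.00257). In IgG1 PC it rose by 1.95 against naive cells (adjusted p = 0.0133), a call lost without IgG1 PC replicate 1 (1.84, adjusted p = 0.0778) or replicate 2 (2.07, adjusted p = 0.052) or naive replicate 3 (1.29, adjusted p = 0.0535).

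Lipoprotein uptake and sterol transport did not move as one. Of 8 tested genes, 1 was higher and 2 lower in IgE GC cells, 0 and 2 in GFP+ and 0 and 1 in GFP- IgG1 GC cells. The shares of all tested genes called higher were 19.3%, 16.8% and 20.5%. With 1 array left out, the higher counts ran from 0 to 2, 0 to 2 and 0 to 1 and the lower counts from 0 to 2, 1 to 3 and 1 to 2. Mylip, a ubiquitin ligase that lowers lipoprotein receptors, fell in each GC group, by 0.96, 1.16 and 1.21 on the log2 scale. In IgE cells the Mylip call was lost without IgE GC replicate 1 (-1.01, adjusted p = 0.0527), replicate 2 (-0.97, adjusted p = 0.0699) or replicate 3 (-0.91, adjusted p = 0.0846) and without naive replicate 2 (-0.53, adjusted p = 0.115). Without naive replicate 2 it was -0.73 in GFP+ (adjusted p = 0.0424) and -0.78 in GFP- IgG1 GC cells (adjusted p = 0.0257). In PC it fell as well, with differences from naive cells of -2.47 in IgE (adjusted p = 3.19e-06) and -2.68 in IgG1 cells (adjusted p = 1.34e-05). Against naive cells, 4 of the 8 were higher and 1 lower in IgE PC, and 3 and 1 in IgG1 PC. Of all tested genes, 23% and 17.1% were called higher there. The lysosomal genes Lipa, an acid lipase that frees cholesterol from its esters, and Npc2, which carries it out of the lysosome, rose from GC to PC, by 1.74 and 1.83 in IgE cells (adjusted p = 0.00139 and 6.7e-05) and by 2.62 and 2.22 in IgG1 cells (adjusted p = 0.000221 and 7.73e-05). Macrophages also express both genes, and the macrophage and dendritic cell marker mean was 5.01 to 5.75 on PC arrays and 4.86 to 5.26 on GC arrays. Its part in the result was not tested.

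The exporter genes Abca1 and Abcg1 went the other way in GC cells. Of the list of LXR, efflux, esterification and oxysterol genes, 3 could be tested in the first experiment. In each GC group 2 of the 3 were lower than in naive cells and 0 higher. Over all 12098 tested genes, 3230, 2813 and 3606 were called in IgE, GFP+ IgG1 and GFP- IgG1 GC cells. Of those calls 72.3%, 72.3% and 68.6% were higher. The cholesterol exporter Abca1 differed by -1.70, -1.52 and -1.39 in IgE, GFP+ IgG1 and GFP- IgG1 GC cells (adjusted p = 0.00859, 0.0185 and 0.0257) and Abcg1 by -0.99, -1.01 and -1.06 (adjusted p = 0.00853, 0.00833 and 0.00573). Without naive replicate 2 the Abca1 values were -1.25 in GFP+ (adjusted p = 0.0661) and -1.12 in GFP- IgG1 GC cells (adjusted p = 0.0795). Its calls were also lost without GFP+ replicate 2 (-1.38, adjusted p = 0.073) or 3 (-1.37, adjusted p = 0.0596) and, in GFP- cells, without GFP- replicate 2 (-1.24, adjusted p = 0.0888) or 3 (-1.24, adjusted p = 0.0865) or naive replicate 3 (-1.36, adjusted p = 0.0608). Both exporters are abundant in macrophages, whose markers were higher on the naive arrays (5.49 to 6.24 against 4.86 to 5.26), and the part of those markers was not tested. In PC against naive cells, 1 of 3 was lower in IgE and 2 of 3 in IgG1 cells (1 to 2 and 0 to 2 with 1 array left out). There 4480 and 3540 of all tested genes were called, 62.0% and 58.3% of them higher.

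The branches of the route were counted next. Of all tested genes, 19.3%, 16.8% and 20.5% were called higher than in naive cells in IgE, GFP+ IgG1 and GFP- IgG1 GC cells. In IgE and IgG1 PC the shares were 23% and 17.1%. Of 10 tested genes that turn isoprenoids into prenyl groups, ubiquinone and dolichol, 0 were higher and 1 lower in IgE GC cells, 1 and 0 in GFP+ IgG1 and 0 and 0 in GFP- IgG1 GC cells. In PC 4 were higher in IgE and 3 in IgG1 cells, with 0 lower. With 1 array left out, the higher counts ran from 0 to 3, 1 to 2 and 0 to 3 in these GC groups and from 2 to 4 and 1 to 3 in IgE and IgG1 PC, so the counts of GC and PC overlapped, and the difference between the stages' counts was not tested. Dhdds, a subunit of the enzyme that makes the dolichol chain, rose by 2.64 in IgE PC and 2.67 in IgG1 PC against naive cells (adjusted p = 4.52e-07 and 4.5e-06), and by 2.13 and 2.29 against the GC cells (adjusted p = 9.32e-06 and 3.81e-05). Its partner subunit Nus1 rose by 1.42 in IgE PC against naive cells (adjusted p = 0.000997) and by 1.54 against IgE GC cells (adjusted p = 0.000737). Of 10 tested genes of fatty acid synthesis, 5, 5 and 6 were higher and 0 lower in IgE, GFP+ IgG1 and GFP- IgG1 GC cells, including the desaturases Fads1 (1.75, 1.99 and 2.03) and Fads2 (1.86, 1.89 and 2.04). With 1 array left out, the GC counts ran from 3 to 5, 2 to 6 and 3 to 6 higher and from 0 to 1 lower. The fewest were left in IgE cells without IgE GC replicate 2 or naive replicate 1, in GFP+ cells without GFP+ replicate 1 or 2 or naive replicate 1, and in GFP- cells without GFP- replicate 1. In PC, 6 were higher and 1 lower in IgE and 4 and 1 in IgG1 cells (4 to 6 and 2 to 4 higher with 1 array left out, fewest in IgG1 PC without its replicate 2). The gene that was lower was the desaturase Scd1, with differences from naive cells of -4.72 in IgE (adjusted p = 5.34e-08) and -4.33 in IgG1 PC (adjusted p = 1.94e-06).

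**Figure D4:**
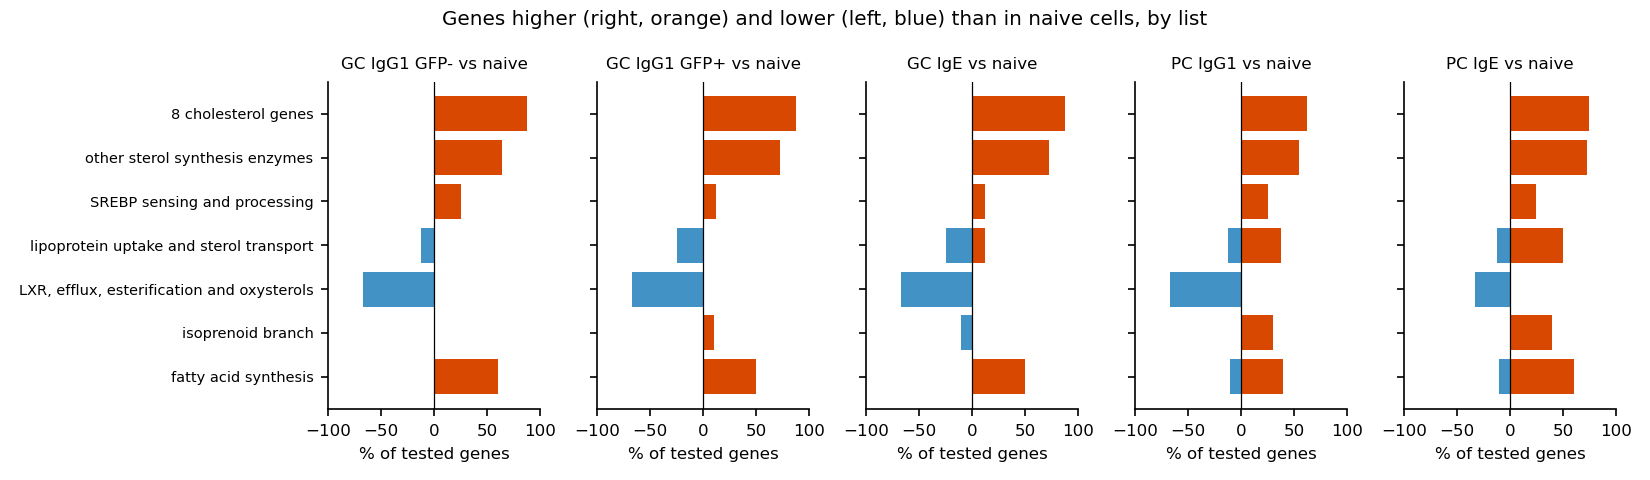
Percent of tested genes that were higher (orange, to the right) or lower (blue, to the left) than in naive B cells at an adjusted p under 0.05 (horizontal axis), for the 8 genes and 6 lists of the wider pathway (rows), in 3 GC and 2 PC groups (panels). The 8 genes and the other sterol synthesis enzymes have the longest bars to the right, and the efflux list, with 3 tested genes, has bars to the left only.

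In the direct comparison of PC with GC cells, 2 of the 11 other sterol enzymes were higher and 1 lower in each isotype. These counts were near the shares of all tested genes called in either direction, 23.6% in IgE and 21.4% in IgG1 cells. Ebp rose by 1.80 in IgE (adjusted p = 5.18e-05) and 1.86 in IgG1 cells (adjusted p = 0.000272), and Nsdhl by 1.22 (adjusted p = 0.00488) and 1.46 (adjusted p = 0.00588). The IgG1 value of Nsdhl was 0.98 without IgG1 PC replicate 1 (adjusted p = 0.122). Lbr was the lower gene in IgE cells (-1.21, adjusted p = 0.000142). In IgG1 cells it was Sc5d (-1.63, adjusted p = 0.0472), whose call was lost in each of the 5 fits that left out 1 array (adjusted p = 0.0733 to 0.245). Scd1 fell by 3.96 on the log2 scale in both isotypes (adjusted p = 8.49e-07 in IgE and 8.67e-06 in IgG1 cells).

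In the second experiment, Srebf2 alone of the 8 genes was called between zones. Over both GFP classes, 1 of the 8 genes passed in DZ against LZ cells, Srebf2, which was lower, and 3% of 11050 tested genes were called lower. Srebf2 read 9.74, 9.11 and 9.47 in GFP+ DZ cells and 9.95, 9.93 and 9.94 in GFP+ LZ cells. In GFP- cells it read 9.48, 9.38 and 9.49 in the DZ and 9.87, 9.93 and 9.57 in the LZ. DZ and LZ arrays did not overlap within either GFP class. The difference was -0.42 (1.34-fold lower in the DZ, SE 0.12, adjusted p = 0.0481). The Srebf2 call sat at the threshold: it was lost in 10 of the 12 fits that left out 1 array, with no filter on dim genes (adjusted p = 0.0574) and in the fit with the replicate block (adjusted p = 0.0543).

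Within each GFP class, 0 of the 8 genes passed by limma. In GFP+ cells, where 1.22% of all tested genes passed, Srebf2 differed by -0.50 (adjusted p = 0.199) and Sqle by -0.52 (adjusted p = 0.399). There 1 of the 8 and 12.9% of all tested genes had an unadjusted p under 0.05. In GFP- cells, where 2.59% passed, Idi1 differed by 0.64 (adjusted p = 0.105) and Srebf2 by -0.34 (adjusted p = 0.315). Before adjustment 1 of the 8 and 17.2% of all tested genes were under 0.05. Idi1 read 8.76, 8.62 and 9.05 in GFP- DZ cells and 8.11, 7.94 and 8.45 in GFP- LZ cells, without overlap, but its dimmer probe set gave -0.01. Hmgcs1 averaged 8.22 to 8.29 in all 4 groups.

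**Figure D5:**
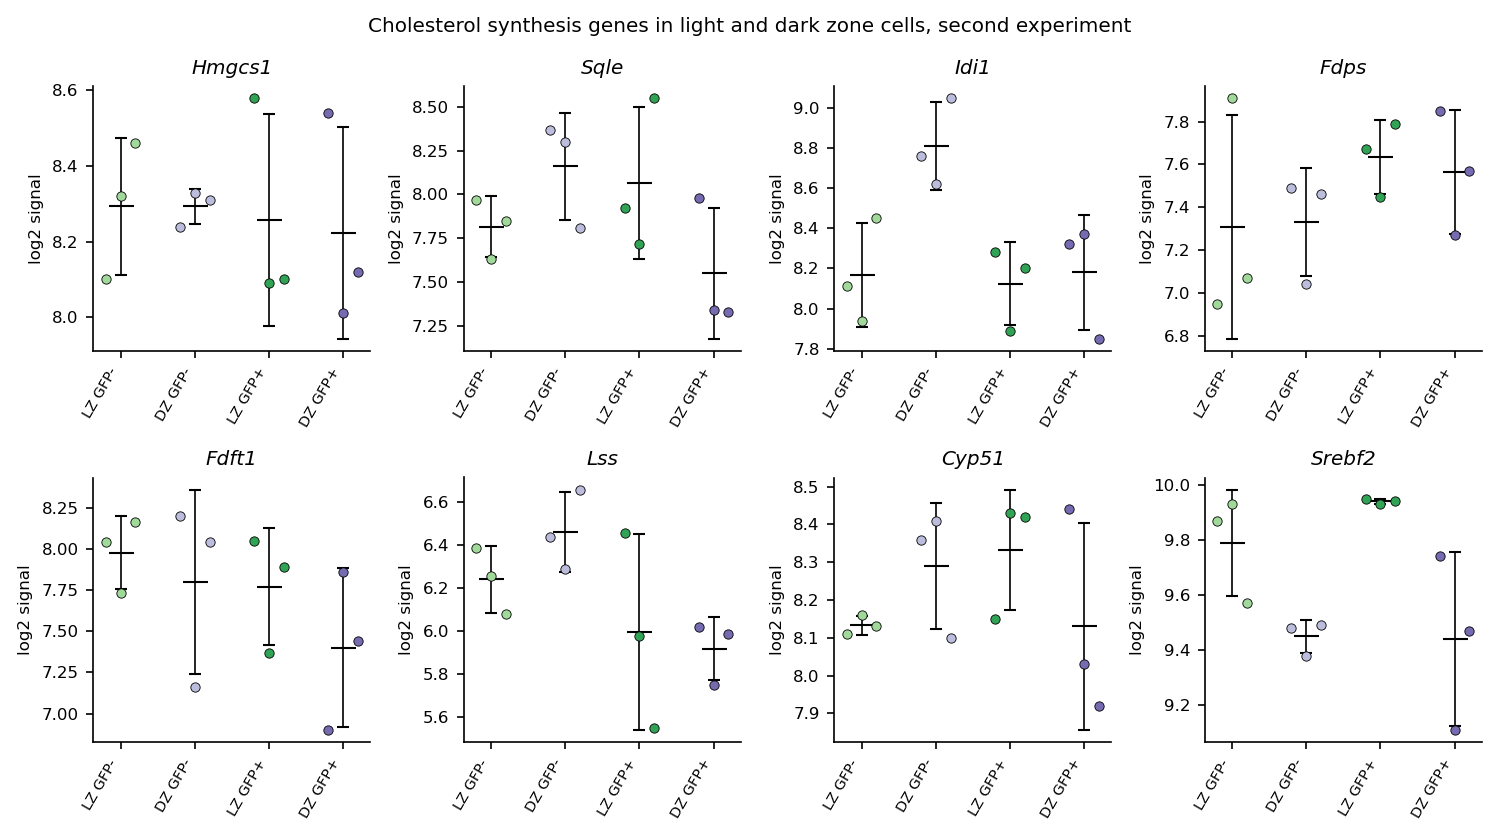
Log2 signal of each of the 8 genes (one panel per gene, vertical axis) on the 12 arrays of the second experiment, by zone and GFP class of IgG1 GC cells (horizontal axis); points are arrays, horizontal lines group means and bars 1 SD. Srebf2 is higher in LZ than in DZ cells in both GFP classes, and Idi1 is highest in GFP- DZ cells.

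GFP class made no difference that passed in the zones. For GFP+ against GFP- over both zones limma called 0 of the 8 genes and 0% of all tested genes (519 genes with an unadjusted p under 0.05). Lss (-0.39) and Idi1 (-0.34) were the 2 of the 8 under 0.05 before adjustment, at an adjusted p of 0.941. For the interaction of GFP class with zone limma also called 0 of the 8 and 0% of all tested genes (543 with an unadjusted p under 0.05). The interaction values of the 8 genes were all below 0, from -0.86 to -0.04 with a median of -0.25, beside -0.04 over all tested genes. Sqle was at the low end (-0.86, adjusted p = 0.986), reading 7.98, 7.34 and 7.33 in GFP+ DZ and 8.37, 8.30 and 7.81 in GFP- DZ cells. Hmgcs1 turned to 0.04 after a further quantile normalization and 0.03 under median centring.

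Some genes of the wider lists were called between zones, where 764 of 11050 tested genes were called in either direction. Of 11 other sterol enzymes, 1 was higher and 1 lower in DZ than in LZ cells: Lbr (0.39, adjusted p = 0.0243) and Msmo1 (-0.53, adjusted p = 0.0224). Lbr lost its call in 7 and Msmo1 in 4 of the 12 fits that left out 1 array. Of 8 uptake and transport genes, 1 was higher, Mylip (0.74, adjusted p = 0.00683). Of 9 tested genes of fatty acid synthesis, 2 were higher in the DZ, Scd2 (0.97, adjusted p = 0.00313) and Fads2 (0.80, adjusted p = 0.00307), and 2 were lower, Acaca, the first committed enzyme of that route (-0.68, adjusted p = 0.0109), and Scd1 (-0.40, adjusted p = 0.0424). The Scd1 call was lost in 9 of the 12 fits that left out 1 array, while the calls of Mylip, Scd2, Fads2 and Acaca held in all 12.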

How the data were processed

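The deposited values were log2 signals per probe set on Affymetrix Gene ST arrays, which the authors made with RMA (background correction, quantile normalization and probe summary); the submitters' processing notes name RMA and R 2.15.2. Genome build, array batch and date were not given in the sources used here, nor whether both experiments were normalized in 1 run. Depth does not apply to arrays: the number of arrays limits the precision. Of 34760 probe sets, 21640 had a single gene symbol in the platform annotation, 1321 several and 11799 none. Of the single-symbol probe sets, 21553 matched a RefSeq gene (GRCm38.p6). Each gene was measured by its brightest single-symbol probe set (mean over 30 arrays). Genes above the array median on at least 2 (first experiment) or 3 arrays (second) were tested, 12098 and 11050, and all 8 genes passed.

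Differences were fitted with limma 3.58.1 in R 4.3.3 (lmFit, eBayes), 1 fit per experiment over all its groups, so that they share the estimate of spread. P-values were adjusted by Benjamini-Hochberg over all tested genes, with calls at 0.05, two-sided. The scripts were tested on simulated data. Named genes were the 8 in every comparison, up to 4 called genes with the largest differences per other list, and the 5 genes most like the mean of the 8; genes named beyond that rule were chosen after their values were seen. The 8 genes and the lists were chosen with earlier results of these data known. Samples came from independent sorts. Same-numbered arrays are not stated to be linked. Their residual correlations ran from -0.110 to 0.222 in the first and 0.002 to 0.199 in the second experiment. The medians were 0.059 and 0.086, beside -0.029 and -0.045 for arrays of different groups with unlike numbers. Every same-numbered pair was over 0.1 for GFP- and GFP+ IgG1 GC cells alone, and a link between other groups is not excluded. Alternatives were another normalization, filter, probe set rule, set of groups in the fit, prior, replicate block, and arrays left out; the use of the dimmer probe sets of Idi1 and Fdft1 was added after the data were seen. Figures were drawn with matplotlib 3.10.9 in python 3.11.15. Some genes of the pathway are not reported here.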

Additional observations from a re-analysis of the deposited data

How the results depend on the processing

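No called value of the 8 genes changed sign under any setting run. Of 1456 values from other settings, 1429 stayed on the same side of the threshold, 24 lost the call and 3 gained it. Of 1008 values with 1 array left out, 977, 28 and 3 did. Some values that were never called changed sign, and these are counted as staying on the same side. The count of the 8 genes called, with 1 array left out, ran from 4 to 7 for IgE GC, 5 to 7 for GFP+ IgG1 GC, 6 to 7 for GFP- IgG1 GC, 5 to 7 for IgE PC and 3 to 5 for IgG1 PC against naive cells, from 0 to 1 for IgE PC against IgE GC, 1 to 2 for IgG1 PC against GFP+ IgG1 GC and 0 to 1 for DZ against LZ cells. With the replicate block, 1 gene was called in IgE PC against IgE GC cells, and 0 in DZ against LZ cells. The DZ count was also 0 with no filter on dim genes and with all probe sets kept (Srebf2 adjusted p = 0.0507). The IgG1 PC against GC count was 1 under median centring and 1 with only those groups in the fit. With the replicate block, no gene of the 8 was called between GFP+ and GFP- IgG1 GC cells (0). These were the only groups with every same-numbered correlation over 0.1. With only the compared groups in the fit, counts over all genes went from 3230 to 2037, 2813 to 1527 and 3606 to 2061 for IgE, GFP+ and GFP- IgG1 GC cells against naive cells, 3540 to 1670 for IgG1 PC against naive cells, 116 to 0 between PC isotypes, 11 to 1 for the interaction, and 135 to 17 and 286 to 144 for the zones in GFP+ and GFP- cells. Under the same setting the count rose from 2860 to 3284 for IgE PC against IgE GC cells and from 0 to 1 for GFP+ against GFP- IgG1 GC cells. The cause was not tested. Between PC isotypes the count was 72 with the block and 227 without the 2 arrays that stood apart, and the interaction count was 5 with the block and 7 under median centring. In the PC isotype comparison, the share of higher calls was 81.9%, 61.2% under median centring and 71.4% after a further quantile normalization, and in GFP- DZ against LZ cells it went from 61.5% to 45.5% after the latter.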
